A study of Caenorhabditis elegans with 2 samples.

Results

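The regions described here are 5013 ChIP-seq candidate peaks on the X chromosome of Caenorhabditis elegans, out of 30000 candidates in the genome. They are the pooled candidates on X whose summit, the position of highest signal in the peak, lay more than 500 bp from any tRNA, snoRNA or snRNA gene. The rule used position alone, and 271 of the 5284 candidates on X fell to it. The candidate list is labelled as peaks and background together, the input of the reproducibility step. A candidate therefore need not be a bound site. The study profiled CEH-79, a homeobox transcription factor, in 1 group of 2 biological replicates of strain OP553, which carries unc-119(tm4063) III and the integrated transgene wgIs553. The transgene joins GFP and FLAG to the C terminus of CEH-79, the promoter that drives it is not given in the sources used here, and both replicates are of this single line. Whole young adults, pooled males and females, were taken 66 hours after starved L1 larvae had been synchronized. The sample descriptions name an antibody against GFP, while the antibody field of the labels names ceh-79. Both replicates were called against the same control alignment, per the notes deposited with the files, and there is no second condition to compare.

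Homeobox proteins bind DNA through the homeodomain, which in many family members prefers A/T-rich words such as TAATTA. The X chromosome of the worm is set apart from the autosomes by dosage compensation. In hermaphrodites, which carry a pair of X chromosomes, a condensin-like dosage compensation complex is loaded at recruitment sites along both and lowers expression of their genes. Those sites carry a short motif that is enriched on X, whose core includes GCGCAGGG. Males carry a single X and do not load the complex.

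The word GCGCAGGG, on either strand, lay within 50 bp of the summit in 8 of the 43 members that the authors' reproducibility threshold kept, here called optimal. It was found there in 0 of 342 autosomal optimal peaks chosen by the same rule. In these lists the optimal peaks were also the strongest by pooled signal. The lowest had 86.55 on X and 86.70 on the autosomes, against 86.45 and 86.51 for the strongest peaks not kept. Optimal against other is thus also a contrast of signal. The 8 windows, 50 bp to each side of the summit, are shown because they hold the word these results turn on, in the ce11 assembly and on the strand where the word reads 5′ to 3′. Capitals mark the word. Here and below, between genes means outside protein-coding gene models, so such a summit can lie in a noncoding gene.
peak ranked 19, upstream of nspc-17, chrX:14525839-14525939, minus strand: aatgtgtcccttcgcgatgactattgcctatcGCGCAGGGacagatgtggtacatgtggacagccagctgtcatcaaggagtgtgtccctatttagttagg
peak ranked 65, between genes, chrX:11094187-11094287, minus strand: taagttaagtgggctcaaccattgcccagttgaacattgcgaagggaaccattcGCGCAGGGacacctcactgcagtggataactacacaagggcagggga
peak ranked 71, intron of mom-1, chrX:6296521-6296621, plus strand: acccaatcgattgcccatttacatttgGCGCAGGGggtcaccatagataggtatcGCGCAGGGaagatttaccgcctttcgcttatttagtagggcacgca
peak ranked 164, upstream of ins-39, chrX:1345011-1345111, plus strand: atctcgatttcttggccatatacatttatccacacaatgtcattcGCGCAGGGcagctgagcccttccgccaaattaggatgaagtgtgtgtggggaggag
peak ranked 167, coding exon of pks-1, chrX:5429542-5429642, plus strand: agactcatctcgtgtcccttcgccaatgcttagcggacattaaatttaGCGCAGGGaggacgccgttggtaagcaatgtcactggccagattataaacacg
peak ranked 181, between genes, chrX:1837826-1837926, plus strand: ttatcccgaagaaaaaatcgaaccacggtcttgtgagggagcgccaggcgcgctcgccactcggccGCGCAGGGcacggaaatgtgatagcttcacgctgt
peak ranked 236, between genes, chrX:4209214-4209314, minus strand: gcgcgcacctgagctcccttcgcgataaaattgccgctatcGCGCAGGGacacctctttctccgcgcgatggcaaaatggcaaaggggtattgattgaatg
peak ranked 277, between genes, chrX:806623-806723, plus strand: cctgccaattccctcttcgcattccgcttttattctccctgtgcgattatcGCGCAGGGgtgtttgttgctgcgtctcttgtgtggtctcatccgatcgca

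The ranks are by pooled signal over the whole genome. The windows come from separate places along X and from an intron, a coding exon, upstream and intergenic DNA, and the bases next to the word are counted further on over all its copies. The window in mom-1 held 2 copies. The window of the peak ranked 181 also held, on its other strand, GTTCGA, the box B core of tRNA genes. The nearest annotated short noncoding gene to that summit was a snoRNA gene 6114 bp away. Beside the windows with GCGCAGGG, the strongest optimal members with neither this word nor the variant GCGAAGGG anywhere in the peak had these windows.
peak ranked 44, between genes, chrX:16929888-16929988, plus strand: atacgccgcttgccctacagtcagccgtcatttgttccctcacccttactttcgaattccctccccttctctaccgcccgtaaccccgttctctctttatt
peak ranked 75, upstream of epn-1, chrX:14818949-14819049, plus strand: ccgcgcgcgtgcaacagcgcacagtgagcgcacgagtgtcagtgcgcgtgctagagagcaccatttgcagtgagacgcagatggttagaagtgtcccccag

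Among optimal members the share with GCGCAGGG at the summit was 18.6% (8 of 43, exact 95% interval 8.39 to 33.4%). Among the other members it was 0.181% (9 of 4970, interval 0.0828 to 0.343%). On the autosomes it was 0 of 342 optimal peaks, which allows a share of up to 1.07%, and 12 of 23721 other candidates (0.0506%). Of all windows of this length along the chromosomes, 0.0422% on X and 0.0265% on the autosomes hold the word. The intervals cover counting error over peaks only. Near short noncoding genes, it was at 1 of the 62 optimal X peaks left out here. The word was thus at a larger share of the X peaks the authors kept than of the other groups. These shares are given as a description, with no test, and the words were chosen with earlier results of these data known.

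The pattern was visible in each replicate taken alone, with as many of its strongest candidates as the optimal list holds in place of that list. The pooled list was made from these same libraries, so the replicate counts are not separate support. Replicate 1 had the word at 7 of 44 such X peaks (15.9%, interval 6.64 to 30.1%) and at 0 of 357 autosomal ones. Replicate 2 had it at 4 of 44 X peaks (9.09%, interval 2.53 to 21.7%) and at 0 of 373 autosomal ones. The 2 replicates thus differed in how many of their strongest X peaks held the word, and neither had it in a strong autosomal peak. Within the pooled list the word on X was most frequent in the upper ranks. The top ranks are the optimal members themselves, so the step below them repeats the comparison above. On X the word was at the summit of 3 of 7 members ranked 1 to 100 and of 5 of the 36 other optimal members. Below the optimal list it was at 0 of 168 down to rank 2000, 4 of the next 1273 down to rank 10000 and 5 of the last 3529. On the autosomes it was at 0 of 49, 0 of 293, 0 of 1092, 4 of 6468 and 8 of 16161 in the same 5 ranges of rank.

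Copies of the word were also followed from the genome to the peaks. X holds 81 copies (4.57 per Mb), and the autosomes hold 233 (2.82 per Mb, from 2.06 on I to 3.34 on III). Of the copies on X, 28 (34.6%) lay inside a member and 13 (16.05%) inside an optimal member. Of the autosomal copies, 42 (18.03%) lay inside a candidate of the same rule and 0 inside an optimal one. Most copies on X, 53 of them, lay in no member. In optimal members the copy was a median of 15 bp from the summit, and 9 of the 13 were within 20 bp. In other members the median was 35 bp, with 4 of 15 copies within 20 bp. A C just before the word was found at 11 of the 13 copies in optimal members (CGCGCAGGG), 6 of the 15 in other members and 16 of the 53 outside. An A just after it (GCGCAGGGA) was found at 9, 5 and 20 of them.

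**Figure D1:**
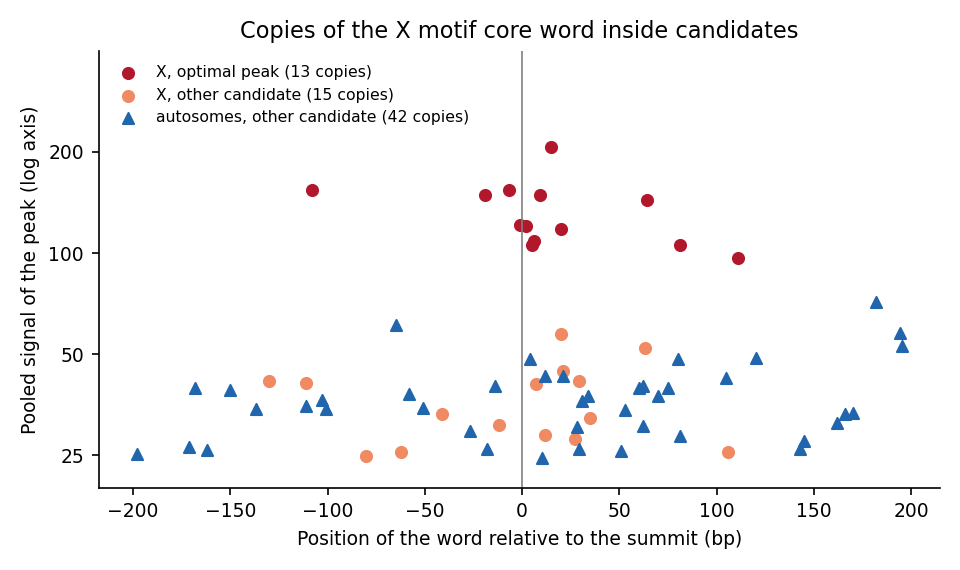
Each point is a copy of the motif core word inside a candidate, placed by its distance from the summit in bp and by the pooled signal of the peak on a log axis. The 13 copies in optimal X peaks gather near the summit at signals from 96.6 to 206. The 15 copies in other X candidates and 42 in autosomal candidates lie lower by construction, since the optimal peaks are the strongest by pooled signal.

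Of the 24 words that differ from GCGCAGGG by a single letter, GCGAAGGG stood out, and it was chosen after its counts were seen. It lay at the summit of 6 optimal members (13.95%), 10 other members (0.201%), 0 autosomal optimal peaks and 30 other autosomal candidates (0.126%), and 0.0739% of X windows and 0.0550% of autosomal windows hold it. No other variant was at more than 1 optimal member, and 16 of the 24 were at 0. Either word was at the summit of 10 optimal members (23.3%), against 18 other members (0.362%). Over the whole peak GCGCAGGG was in 10 optimal members, with median rank 165.5 and median signal 121, while the 33 without it had median rank 320 and median signal 102. Of the 10 strongest members, 4 held GCGCAGGG and 6 held either word.

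Apart from GCGCAGGG and its single-letter variants, each word searched was found in autosomal optimal peaks. GCGCAGGG, like them, was found in other members and in other autosomal candidates. None of the words searched lies inside another, and all were read on both strands. The homeodomain word TAATTA was at 1 of 43 optimal members (2.33%), 2.84% of other members, 1.17% of autosomal optimal peaks and 3.03% of other autosomal candidates. TAATTG was at 6.98, 7.32, 5.56 and 5.94% in the same order of groups. TAATTA is in 5.22% and TAATTG in 8.93% of all windows on X, so neither homeodomain word was more frequent at these summits than along the chromosome. The repeat word GAGAGA was at 13.95% of optimal members, 7.97% of other members, 13.7% of autosomal optimal peaks and 8.08% of other autosomal candidates, and is in 4.90% of X windows. The box B core of tRNA genes, GTTCGA, was at 4.65% of optimal members and 3.70% of others, and is in 3.44% of X windows. The word TGATAA, bound by ELT zinc finger factors, was at 0 optimal members, which allows up to 8.22%, and at 7.71% of other members, with 9.94% of X windows. The E box CACGTG was also at 0 optimal members, at 1.97% of others and in 1.32% of X windows. The splice acceptor word TTTCAG was at 1 optimal member (2.33%, interval 0.0589 to 12.3%) and at 13.8% of others, with 17.1% of X windows. In autosomal optimal peaks GTTCGA was at 4.68%, TGATAA at 4.97%, CACGTG at 4.39% and TTTCAG at 10.8%. In other autosomal candidates they were at 4.27, 7.20, 2.97 and 16.7% in the same order.

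Optimal members averaged more G and C at the summit than other members. The summit window averaged 50.2% ± 9.04 GC in optimal members (SD, n = 43), 41.8% ± 8.87 in other members (SD, n = 4970), 45.5% ± 9.49 in autosomal optimal peaks (SD, n = 342) and 41.4% ± 8.98 in other autosomal candidates (SD, n = 23721). The 8 windows with GCGCAGGG averaged 52.6% ± 3.45 and the 35 optimal windows without it 49.7% ± 9.84 (SD), a difference inside the spread between peaks. The part of GC content in the word counts was not tested. The optimal members with the highest GC were those in promoters (54.3% ± 6.67, n = 14), and those between genes had the lowest (45.3% ± 10.2, n = 17, SD over peaks), while the word was at 2 of the 14 promoter summits and 4 of the 17 intergenic ones.

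Taking the X chromosome as a whole, fewer of its candidates reached the optimal list than on any autosome. Of the 5013 members 43 were optimal (0.858%, exact 95% interval 0.621 to 1.15%), against 342 of 24063 autosomal candidates of the same rule (1.42%, interval 1.28 to 1.58%). The background over both was 1.32%, and it was 1.89% over all 30000 candidates. The odds ratio was 0.600 (interval 0.426 to 0.827, p = 0.00108, two-sided Fisher's exact test over peaks). Neighbouring peaks are not independent and the test counts peaks of these lists rather than worms, so the spread over chromosomes is the better guide. The autosomal shares were 1.44% on I, 1.12% on II, 2.06% on III, 1.52% on IV and 1.08% on V, so X was the lowest, with an interval that overlapped those of I, II and V. With only the optimal peaks above their median signal the odds ratio was 0.645 and no longer passed (p = 0.0579 by Fisher's exact test).

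**Figure D2:**
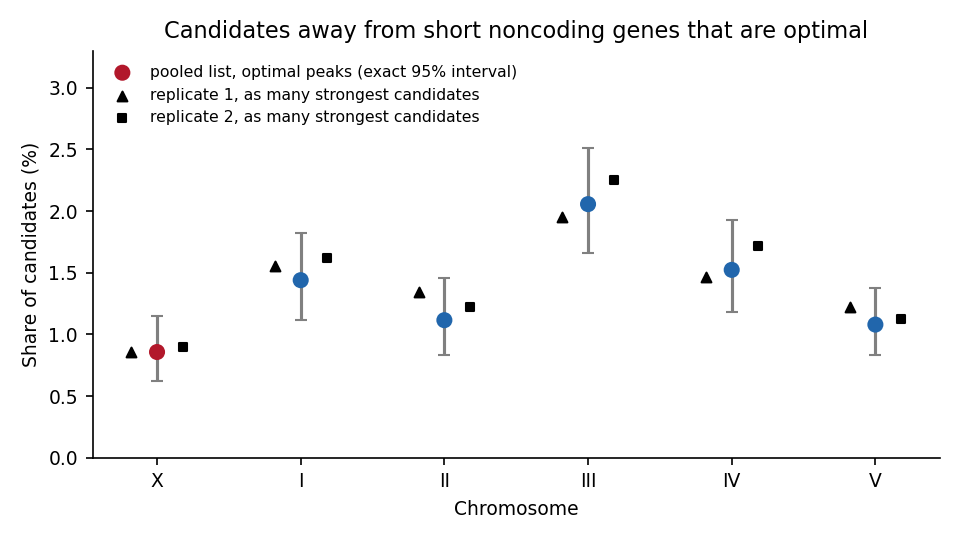
The share of candidates away from short noncoding genes that are optimal is plotted for X and each autosome, with the exact 95% interval, beside the share among an equal number of strongest candidates in each replicate. X is lowest in the pooled list (0.858%) and in both replicates (0.855 and 0.900%).

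Each replicate alone gave the same order at the low end. Among its strongest candidates, as many as the optimal list holds, replicate 1 had 44 of its 5148 X candidates away from short noncoding genes (0.855%), against 1.22 to 1.95% on the autosomes, with a background of 1.89% over its 30000 candidates. Among those of replicate 2 were 44 of 4889 such candidates (0.900%), against 1.12 to 2.26%, with a background of 1.91% over its 29624. Both backgrounds include candidates near short noncoding genes, which the shares of X and of the autosomes leave out. The candidates on X that the rule left out, near short noncoding genes, were of another kind: 62 of the 271 were optimal (22.9%). None of the optimal members lay close to that limit. The nearest to a short noncoding gene was the intergenic peak ranked 127, with its summit 813 bp from the snoRNA gene T27A8.8, and the farthest of the 62 left out was 255 bp from one. Just outside the limit, 11 members between 500 and 600 bp had a median signal of 28.0, and just inside it 5 candidates between 400 and 500 bp had 29.6.

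In number and signal the candidates of X, which by their label include background, resembled those of the autosomes. X had 282.9 members per Mb, against 291 autosomal candidates per Mb, a ratio of 0.971, and single autosomes ran from 251 on IV to 328 on III. Optimal peaks away from short noncoding genes were sparser, with 2.43 per Mb on X and 3.01 on V to 6.75 on III. The signal, the authors' own value for a peak, had a median of 32.0 on X (quartiles 27.2 and 39.7), against 32.5 on the autosomes (quartiles 27.3 and 41.1), with autosomal medians from 32.2 to 33.1. The 99th percentile was 83.1 on X, against 87.7 to 106.7 on single autosomes. Since the optimal peaks are the strongest by signal, this restates the optimal shares, 0.858% on X and 1.08% or more on each autosome. The highest value was 206 on X, against 186 on IV and 344 on I. Only 1 optimal member was among the 25 strongest candidates of the genome and 7 among the 100 strongest. The median signal of optimal peaks was 105 on X and 103.1 on the autosomes. At the threshold the last members inside were the peaks at hsp-3 (87.6), at C30E1.9 (87.2) and in cebp-1 (86.6), and the first outside had 86.4, 85.9 and 85.0.

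Along X the density of members varied about as much as on chromosome I, the autosome where it varied least. Over 10 parts of equal length the density ran from 248 members per Mb in the seventh to 314 in the ninth, a ratio of 1.27 between the highest and the lowest, against 1.27 on I to 2.06 on IV. The fifth, the sixth and the seventh part, around and just past the middle, were the sparsest, at 256, 253 and 248 per Mb, and the others had 286 or more. The optimal members followed no single cluster: each part held from 2 (the sixth) to 7 (the fourth), with a median gap of 289.9 kb between neighbouring summits and a widest gap of 1685 kb. Across the 10 parts of X, which share their libraries, the density of members and of protein-coding genes had a Spearman correlation of -0.23, given as a description. Protein-coding genes were sparser on X, with 154 per Mb against 209 on the autosomes.

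**Figure D3:**
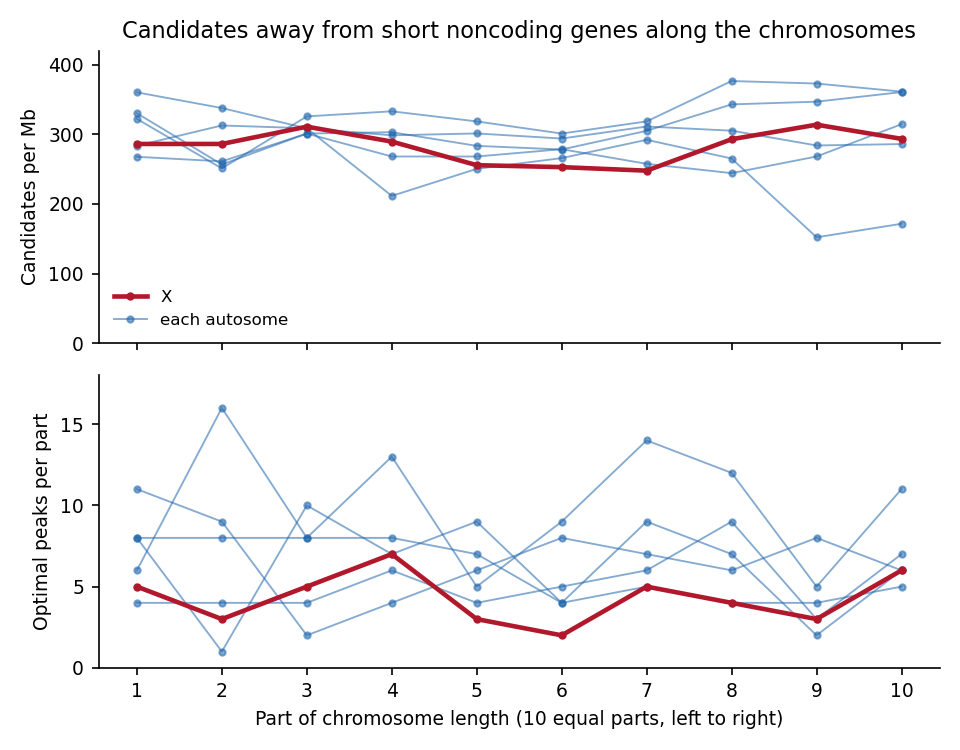
Candidates per Mb (upper panel) and the number of optimal peaks (lower panel) are plotted for 10 parts of equal chromosome length, X in red and each autosome in blue. The density on X stays between 248 and 314 per Mb, and its optimal peaks number 2 to 7 in each part.

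Optimal members lay between genes more often, and in promoters less often, than autosomal optimal peaks. A summit counted as a promoter one where it lay within 1000 bp before or 200 bp after a protein-coding transcript start, and otherwise as exon, intron or intergenic in protein-coding gene models. Of the 43 optimal members 17 were intergenic (39.5%, interval 24.98 to 55.6%), against 63 of 342 on the autosomes (18.4%, interval 14.5 to 22.9%), an odds ratio of 2.90 (interval 1.38 to 5.91, adjusted p = 0.0101 by Fisher's exact test, Benjamini-Hochberg over the 4 classes). Promoters held 14 of the 43 (32.6%, interval 19.1 to 48.5%), against 176 of 342 (51.5%), an odds ratio of 0.455 (interval 0.215 to 0.928, adjusted p = 0.0463 by Fisher's exact test). Single autosomes had 44.8 to 61.2% of their optimal summits in promoters and 11.9 to 28.4% between genes, so X lay outside the autosomal range in both classes. Exons held 8 (18.6%), against 18.7% (odds ratio 0.993, interval 0.379 to 2.31), and introns 4 (9.30%), against 11.4% (odds ratio 0.797, interval 0.196 to 2.39), neither past the test (adjusted p = 1 for both, Fisher's exact tests). The 8 exon summits were all in coding sequence.

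Both calls were sensitive to which peaks entered. The promoter call was lost without replicate 2, where the odds ratio was 0.770 (adjusted p = 0.631 by Fisher's exact test), with gene starts only (0.499, adjusted p = 0.102), and with only the peaks above the median signal (0.451, adjusted p = 0.219). The intergenic call was lost without replicate 2, where the odds ratio was 2.46 (adjusted p = 0.0542 by Fisher's exact test). Without the 10 optimal peaks that hold GCGCAGGG, an alternative chosen after the data were seen, 12 of 33 optimal members were intergenic and 12 of 33 in promoters, and neither difference passed (odds ratio 2.53, adjusted p = 0.0848, and 0.539, adjusted p = 0.209 by Fisher's exact tests).

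**Figure D4:**
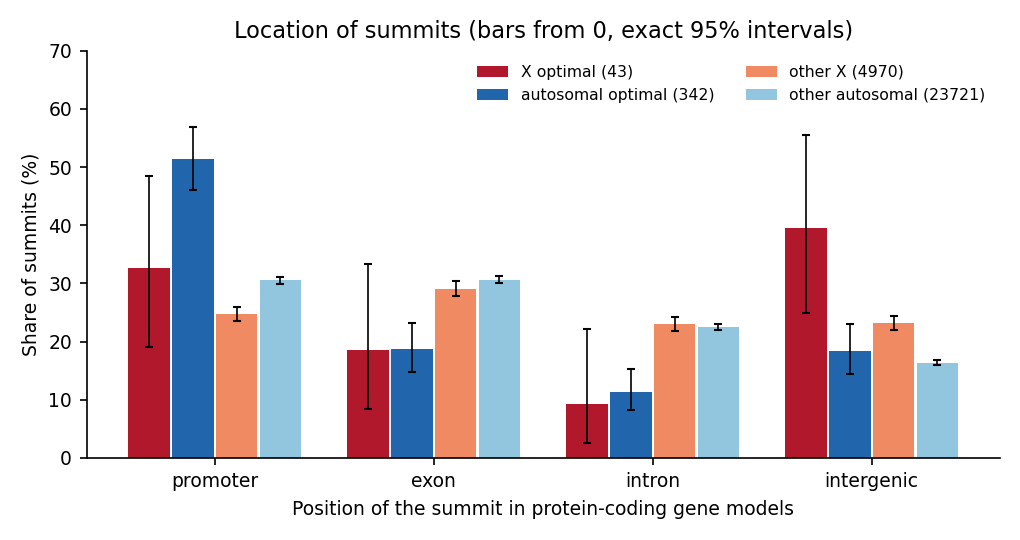
Bars give the share of summits in promoters, exons, introns and between genes for optimal X peaks, autosomal optimal peaks, other X candidates and other autosomal candidates, with exact 95% intervals. Optimal X peaks have the highest intergenic share of the 4 groups (39.5%) and a promoter share of 32.6%, against 51.5% of autosomal optimal peaks.

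The other members differed in the same direction. Between genes lay 23.2% of the 4970 other members, against 16.4% of the 23721 other autosomal candidates (odds ratio 1.54, adjusted p = 6.09e-28 by Fisher's exact test), and in promoters 24.7%, against 30.6% (odds ratio 0.747, adjusted p = 2.41e-16). Set against these other members, none of the 4 classes passed for the optimal ones: promoters 32.6% and 24.7% (odds ratio 1.47, interval 0.715 to 2.88, adjusted p = 0.286 by Fisher's exact test), exons 18.6% and 29.1% (adjusted p = 0.234), introns 9.30% and 23.04% (adjusted p = 0.0584) and intergenic DNA 39.5% and 23.2% (odds ratio 2.17, adjusted p = 0.0584 by Fisher's exact tests). The direction in promoters turned with the replicate used: the odds ratio was 0.911 without replicate 1 and 2.13 without replicate 2. On the autosomes the promoter share of optimal peaks was above that of other candidates (51.5% and 30.6%, odds ratio 2.41, adjusted p = 6.19e-15 by Fisher's exact test). The difference between these odds ratios was not tested directly.

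By class, the lower optimal share of X passed the test in promoters alone. Of 1243 promoter members 14 were optimal (1.13%), against 176 of 7423 autosomal promoter candidates (2.37%), an odds ratio of 0.469 (interval 0.250 to 0.812, adjusted p = 0.0178 by Fisher's exact test). Of 1168 intergenic members 17 were optimal (1.46%), against 63 of 3950 (1.59%), an odds ratio of 0.911 with an interval of 0.498 to 1.58 (adjusted p = 0.893 by Fisher's exact test). In exons the shares were 0.551% and 0.873%, and in introns 0.348% and 0.728%, and neither difference passed (adjusted p = 0.353 for both by Fisher's exact tests). Whether the classes differ from one another was not tested. These comparisons within classes were added after the data were seen. The promoter call was lost without chromosome III, the autosome with the largest optimal share (odds ratio 0.526, adjusted p = 0.0724), and without replicate 2 (0.607, adjusted p = 0.0945 by Fisher's exact tests). Signal differed little between classes: members had medians of 32.9 in promoters, 32.0 in exons, 31.0 in introns and 32.2 between genes. The distance from an optimal summit to the nearest protein-coding start had a median of 1016 bp on X and 543.5 bp on the autosomes. For other candidates it was 1444 bp on X and 1084 bp on the autosomes, so the distance was longer on X in both groups of peaks.

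The strongest member of all was a promoter peak. It lay at chrX:14525677-14526100, with its summit 708 bp upstream of nspc-17, a gene of a nematode-specific peptide family, and ranked 19 in the genome. Its signal was 206 in the pooled list, 120.4 in replicate 1 (rank 16) and 94.4 in replicate 2 (rank 18). It held both GCGCAGGG and GCGAAGGG at the summit, and was the only optimal member in the 25 strongest of either replicate apart from the pair at C30E1.9. The next promoter peak was at epn-1, which encodes epsin, an adaptor of endocytosis (chrX:14818787-14819210, pooled signal 148, ranks 97 and 57 in replicates 1 and 2). The summit upstream of bet-2, a bromodomain protein gene, had a pooled signal of 123 and ranks 344 and 140, and that upstream of spat-3, which encodes a RING protein of the Polycomb type, had 123 and ranks 235 and 228.

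The weaker promoter peaks were at genes of varied function. The peak at ins-39, an insulin-like peptide gene, had a pooled signal of 121 and ranks 113 and 642 in replicates 1 and 2, and held GCGCAGGG at its summit. That at ftt-2, a 14-3-3 protein gene, had 111 and ranks 115 and 611, and a second optimal peak (signal 102) lay 1918 bp downstream of its nearest start, outside the gene. For spc-1, the alpha spectrin gene, the signal was 103.8 with ranks 261 and 2088, and for puf-9, which encodes a PUF family RNA-binding protein, 102 with ranks 278 and 922. The peak at act-4, an actin gene, had a signal of 94.4 and ranks 682 and 1092. All 5 ranked lower in replicate 2 than in replicate 1.

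The lowest promoter peaks were near the threshold. That of pdi-2, a protein disulfide isomerase gene, had a pooled signal of 89.1, ranked 107 in replicate 1 and overlapped no candidate of replicate 2, and it was the single optimal member without a counterpart in both lists. That of hsp-3, the endoplasmic reticulum HSP70 gene, lay 6 bp upstream of its start with a signal of 87.6 and ranks 810 and 1325. The windows of T13C5.6 (117), F22F1.3 (89.2) and F22F1.2 (89.1) held the remaining promoter summits. In all, 14 genes of the 967 on X with any candidate in the promoter window had an optimal one (1.45%), against 219 of 6038 on the autosomes (3.63%). The share of protein-coding genes with any candidate there was alike, 35.5% of 2727 on X and 35.2% of 17138 on the autosomes.

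Within genes, the strongest member was in an intron of mom-1, which encodes a Porcupine homologue needed for Wnt secretion. It lay at chrX:6296359-6296782 with a pooled signal of 149, a signal of 98.6 in replicate 1 (rank 43) and 54.6 in replicate 2 (rank 206), and held 2 copies of GCGCAGGG, 19 bp and 9 bp from the summit. The intron peak of Y41G9A.17 (signal 144, ranks 201 and 53) held the word 64 bp from its summit, outside the window, and the variant inside it. Introns of unk-1, an Unkempt-like zinc finger gene (95.2), and T18D3.9 (89.2) held the other 2. In coding exons the strongest was in pks-1, a polyketide synthase gene (signal 120.5, ranks 122 and 629), again with GCGCAGGG at the summit. A pair of overlapping peaks in osm-11, which encodes a secreted Notch ligand (signals 109.6 and 99.2, summits 221 bp apart), shared a single peak in each replicate. Exons of the collagen genes col-171 (91.3) and col-184 (89.8), the neuropeptide gene nlp-76 (90.9), C42D8.9 (89.5) and cebp-1, a bZIP factor gene (86.6), completed the class.

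Outside protein-coding genes lay the second and the third strongest members. The peak at chrX:16929726-16930149 had a pooled signal of 167 and ranks 87 and 22 in replicates 1 and 2. Its summit was inside C30E1.9, a gene of the annotation's ncRNA class, and a second optimal peak (87.2) overlapped it by 225 bp and shared its replicate peaks. It held neither word. The peak at chrX:11094025-11094448 had a pooled signal of 154 and ranks 132 and 48, and held 2 copies of GCGCAGGG, 7 bp and 108 bp from the summit. Its nearest protein-coding start, that of W02H3.3, was 3949 bp away. The intergenic peaks ranked 81 (signal 143.5), 124 (130.1), 127 (129) and 149 (124) had no GCGCAGGG, and the variant was at the summit of the peak ranked 124 and elsewhere in the peak ranked 149. Lower down, the peaks ranked 181, 236 and 277 held GCGCAGGG at the summit and the peak ranked 376 held it 111 bp away. Of all optimal members, 12 (27.9%) had a summit within 500 bp of a miRNA, rRNA, ncRNA or lincRNA gene, against 12.6% of autosomal optimal peaks and 15.5% of other members, and 0 of the 12 were near a miRNA or lincRNA gene. Besides the pair at C30E1.9, the summits inside such a gene were the promoter ones at epn-1, spat-3, T13C5.6, ftt-2, puf-9 and pdi-2 and the exon one in col-171. With peaks near such genes left out, 8 of 31 optimal members were in promoters (odds ratio against autosomes 0.323, adjusted p = 0.0151 by Fisher's exact test).

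Agreement between the replicates was partial. Each of the 43 optimal members overlapped a candidate of replicate 1, and 42 one of replicate 2. Both overlapping candidates were among the strongest of their list, as many as the optimal list holds, for 17 of 43 (39.5%), against 157 of 342 autosomal optimal peaks (45.9%), an odds ratio of 0.770 with an interval of 0.378 to 1.54 (p = 0.516, two-sided Fisher's exact test). With the 1000 strongest of each replicate it was 1.24 (p = 0.723 by Fisher's exact test). The 2 chromosome groups were thus not told apart, within an interval that is wide. Both peaks of each overlapping pair, at C30E1.9 and in osm-11, are counted in the 17, though each pair shares a single candidate in each replicate. A further 14 members were among the strongest of replicate 1 alone, 9 of replicate 2 alone and 3 of neither. Of the 10 with GCGCAGGG in the peak, 5 were among the strongest of both, as were 12 of the 33 without it.

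The optimal list was itself kept for reproducibility and holds the strongest pooled peaks, so its overlap with the replicates is not set against that of all members. Of the 5013, 2248 (44.8%) overlapped a candidate in both lists, against 49.4% on the autosomes. Across those 2248 the signals of the 2 replicates had a Spearman correlation of 0.26, and across 11894 autosomal candidates 0.30, given as descriptions over peaks that share libraries and a control. Over the optimal members, which were chosen for high signal, it was 0.25 (n = 42), and 0.12 over autosomal optimal peaks (n = 342). Of the 44 strongest X candidates of replicate 1, 15 overlapped a strongest candidate of replicate 2 (34.1%, interval 20.5 to 49.9%), and of the 44 strongest of replicate 2, 16 overlapped such a candidate of replicate 1 (36.4%, interval 22.4 to 52.2%). For the autosomes these shares were 43.1 and 42.6%, inside the intervals of X.

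**Figure D5:**
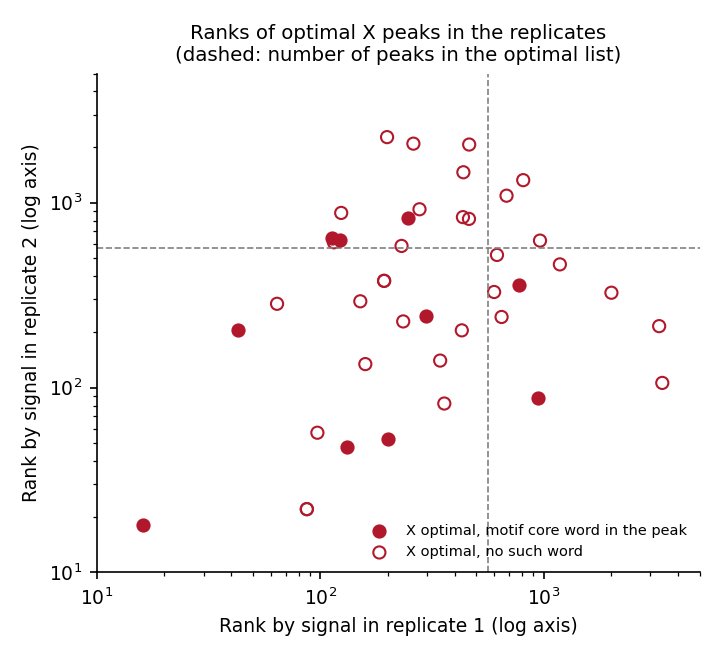
The 42 optimal X peaks with a candidate in both replicates are plotted by their rank in replicate 1 and replicate 2, on log axes, filled where the peak holds the motif core word, with dashed lines at the number of peaks in the optimal list. The nspc-17 peak lies at the lower left (ranks 16 and 18), and 17 of the 42 lie below both lines. The overlapping peaks at C30E1.9 share their replicate ranks, as do those in osm-11, so each pair falls on 1 position.

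Of the 13 gene lists examined, 3 had a gene with an optimal member in its promoter window, the window used for the counts of candidates below. Over all X genes 14 of 2727 had one, so a count of 0 or 1 in lists of this size is read as nothing particular to a list. Of 34 X-linked neuropeptide genes, 17 had a candidate there and 1, ins-39, an optimal one, and nlp-76 had one in its exon. Of 13 muscle genes, 9 had a candidate and act-4 an optimal one, and of 5 chaperone genes 3 had a candidate and hsp-3 an optimal one. Of 30 cuticle collagen genes, 12 had a promoter candidate and 0 an optimal one, though col-171 and col-184 had one in an exon. No share over all X genes is given for exons, so the exon peaks are not read as particular to a list. The remaining lists had 0 optimal peaks in the promoter window or in the gene body, and the genes named from them were chosen after their values were seen. They held 27 nuclear receptor genes, of which 17 (63.0%) had a candidate, with nhr-35 the highest at a signal of 83.1 and rank 642, just past the threshold. Of 27 homeobox genes 10 (37.0%) had a promoter candidate, the highest at ceh-39 (56.8), while candidates in the bodies of ceh-60 (78.8, rank 763) and ceh-21 (64.1) were above it. Of 34 chemoreceptor genes 3 (8.82%) had a promoter candidate, the highest at srv-7 (38.6). Over all X genes 35.5% had a promoter candidate, with a median signal of 34.7 for the best of each gene.

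Genes of sex determination and dosage compensation were looked at by name, since several are on X. Of 6 X-linked genes of that list 4 had a candidate in the promoter window, and none was optimal. They were ceh-39 (56.8, rank 2428) and sex-1 (42.3), both X signal elements, sdc-2 (40.4), which starts the loading of the complex on X, and fox-1 (31.8), an RNA-binding X signal element. For xol-1, the switch gene of male fate, the only candidate was in the gene body (28.8, rank 20165), as for sdc-1 (32.3), and fox-1 had a stronger one in its body (45.2). Channels (9 of 20 with a candidate, highest unc-2 at 58.5), innexins (5 of 6, inx-3 at 61.9), synaptic genes (4 of 6, unc-10 at 57.8), vitellogenins (1 of 5, vit-2 at 43.3) and ribosomal protein genes (1 of 2, rpl-11.2 at 43.4) had promoter candidates of moderate signal, and vit-2 had a stronger one in its body (51.4). All of these lie under the signal of the lowest optimal member, 86.6.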

How the data were processed

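ChIP-seq peak lists of 2 replicates and of their pooled alignments were used in ce11. Per the notes deposited with the files, candidates were called against 1 control alignment, and the optimal list was kept by the irreproducible discovery rate. Which aligner and caller were used is not given in the sources used here. A peak's signal and −log10 q, as deposited, are the authors' own values and served only to describe and rank peaks within a list. No read counts are in these lists, so the depth is unknown, and intervals cover counts of peaks only.

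Summits were placed on Ensembl release 115 gene models (WBcel235, the coordinates of ce11), and sequence was read from the RefSeq assembly. Coordinates are 1-based. Replicate peaks were matched to pooled peaks by at least 1 bp, the best ranked kept. Shares were compared by two-sided Fisher's exact tests, adjusted by the Benjamini-Hochberg method over 4 location classes, and intervals are exact at 95%. The tests were tested on simulated data.

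The members, the 13 gene lists and the words were chosen with earlier results of these data known. Every optimal member was considered by rank, named by its promoter genes, else the gene that holds it, else the nearest start, and list genes with an optimal peak were named. Other list genes were named outside this rule, after their values were seen. Alternatives covered the distance to short noncoding genes, promoter windows, joined summits, fewer peaks and each replicate alone. Replicates are separate biological samples per the labels, and no sample's column was left unmapped. Python 3.11.15, numpy 2.4.6, pandas 2.3.3, scipy 1.17.1, statsmodels 0.14.6 and matplotlib 3.10.9 were used.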

Additional observations from a re-analysis of the deposited data

How the results depend on the processing

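Of 98 alternative values over 10 results, 81 stayed on the same side of the threshold in the same direction, or within the spread, and 52 were added after the data were seen, among them all those for the intergenic share, the share within promoters and the word. The optimal share of the X members was past the threshold in every alternative tried except with only the optimal peaks above their median signal (odds ratio 0.645). Without either replicate its odds ratio was 0.5698 to 0.572. The promoter share of optimal peaks, X against autosomes, was lost with gene starts only (0.499), the peaks above the median signal (0.451), joined summits (0.480), without chromosome IV (0.501) or V (0.459), and without peaks holding the word (0.539), and without single replicates ran from 0.315 to 0.770. Against other X members it ran from 0.911 to 2.13 without single replicates, so its direction turned. The intergenic odds ratio ran from 2.46 to 4.74 without single replicates and was lost without peaks holding the word (2.53). Within promoters the call was lost with gene starts only (0.503), the peaks above the median signal (0.507) and without chromosome III (0.526), and without single replicates the odds ratio ran from 0.333 to 0.607. Replicate agreement turned to 1.24 with the 1000 strongest of each replicate. The word's share was 38.1% in the peaks above the median signal, which hold all 8, and 9.09 to 15.9% without single replicates. The cause of these changes was not tested. The density ratio ran from 0.954 to 1.001 without single replicates and the signal ratio from 0.9796 to 0.986. A planned correlation on the -log10 p column was not run, since that column holds -1 throughout, and with the −log10 q it was 0.26. No paired analysis was possible because there is 1 group.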
